A study of Mus musculus with 20 samples.

Results

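The 39 genes described here encode the machinery of DNA replication and mitosis, followed in mouse hearts with and without Sorbs2. They were taken by symbol from 2 deposited tables of normalised counts, which together list 19222 genes, and all 39 stood in both tables. The product of Sorbs2 is an adaptor of the cytoskeleton found at the Z-disc, and the series is titled for diastolic dysfunction after its loss. Ventricular RNA of 20 mice in 5 groups was sequenced. The younger mice, aged 6 weeks, were 3 with an intact gene (WT) and 3 Sorbs2 knockouts (KO), and at 6 months 5 WT and 5 KO mice, all without treatment. A further 4 KO mice, called KO+AAV, were injected on postnatal day 2 with AAV9-Tnnt2-Sorbs2, a virus that carries Sorbs2 behind the Tnnt2 promoter, which is active in cardiomyocytes, and were sampled at 6 months. The sources used here describe neither the knockout allele nor the strain or sex of the mice, and KO mice given a control vector were not analysed here. Nothing in the labels says that libraries of a group were prepared separately from dissection onwards, so p values measure the spread between these libraries.

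A cell that divides first loads the Mcm2 to Mcm7 helicase onto replication origins with the help of Cdc6 and Cdt1, then copies its DNA with Pcna as the sliding clamp and with nucleotides made by ribonucleotide reductase and thymidylate synthase. Cyclins bound to Cdk1 drive entry into mitosis, where Aurora and Polo kinases, the spindle checkpoint and kinesin motors separate the chromosomes. Most cardiomyocytes of mice leave the cell cycle soon after birth, many after a last round of DNA synthesis without cell division, while fibroblasts, endothelial cells and macrophages of the heart can still divide. In bulk tissue, fewer cells of a type and less RNA per cell cannot be told apart, and the same holds for more cells and more RNA per cell.

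Promoters of these genes are known to fall into a class with E2F sites, read mainly at the onset of DNA replication, and a class with CHR elements and NF-Y boxes, read mainly before mitosis. Windows of 300 bases, 250 before and 50 after the annotated start, were available from RefSeq (GRCm38.p6) for 33 of the 39 genes, in 35 windows. Aurkb, Tpx2, Ccna2, Kif20a, Mcm4 and Gins2 had none. Both strands were searched for the CHR element TTTGAA, the NF-Y box CCAAT and the E2F site in its form TTCCCGC, its form TTCGCGC, its form TTGCCGC or its form TTGGCGC. Of 14 windows of replication and nucleotide genes, 71.4% held an E2F site and 7.14% a CHR element. Of 21 windows of cyclin, mitotic control and spindle genes, 14.3% held an E2F site and 66.7% a CHR element. Over all 32851 windows of the table the shares were 9.57% for E2F sites, 17.9% for CHR elements and 37.4% for NF-Y boxes. NF-Y boxes stood in 64.3% of the first set and in 81% of the second. Promoters of 5 genes, 1 from each role, are shown over the 250 bases before the start and on the strand of the gene, because E2F sites and CHR elements divide the roles that the later comparisons are ordered by. Capitals mark matches to any of the 3 motifs. Mcm6 (chr1:128359706-128359955, minus strand) and Rrm2 (chr12:24708004-24708253, plus strand) carry E2F sites and NF-Y boxes. Ccnb2 (chr9:70421555-70421804, minus strand) and Kif11 (chr19:37376132-37376381, plus strand) carry CHR elements and NF-Y boxes. Bub1 (chr2:127831860-127832109, minus strand) carries NF-Y boxes alone.
Mcm6: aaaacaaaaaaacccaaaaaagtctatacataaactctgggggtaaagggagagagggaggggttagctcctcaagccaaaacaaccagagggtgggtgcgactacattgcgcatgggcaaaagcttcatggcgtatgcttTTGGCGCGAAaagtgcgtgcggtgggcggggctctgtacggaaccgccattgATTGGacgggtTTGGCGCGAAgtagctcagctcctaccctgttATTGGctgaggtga
Rrm2: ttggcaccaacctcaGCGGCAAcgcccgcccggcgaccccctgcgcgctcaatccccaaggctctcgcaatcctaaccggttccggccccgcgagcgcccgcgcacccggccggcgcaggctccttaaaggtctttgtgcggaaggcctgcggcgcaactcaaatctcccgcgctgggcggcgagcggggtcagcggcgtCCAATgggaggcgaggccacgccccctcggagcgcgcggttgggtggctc
Ccnb2: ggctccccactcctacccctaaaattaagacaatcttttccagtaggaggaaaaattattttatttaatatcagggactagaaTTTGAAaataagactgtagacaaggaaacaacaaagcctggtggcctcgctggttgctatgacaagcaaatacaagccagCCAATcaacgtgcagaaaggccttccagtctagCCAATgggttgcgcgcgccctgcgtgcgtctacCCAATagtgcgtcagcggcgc
Kif11: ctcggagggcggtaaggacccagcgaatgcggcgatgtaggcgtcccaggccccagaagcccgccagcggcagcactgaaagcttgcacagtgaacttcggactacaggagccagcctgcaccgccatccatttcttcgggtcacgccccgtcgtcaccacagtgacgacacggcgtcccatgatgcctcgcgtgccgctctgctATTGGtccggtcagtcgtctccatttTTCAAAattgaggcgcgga
Bub1: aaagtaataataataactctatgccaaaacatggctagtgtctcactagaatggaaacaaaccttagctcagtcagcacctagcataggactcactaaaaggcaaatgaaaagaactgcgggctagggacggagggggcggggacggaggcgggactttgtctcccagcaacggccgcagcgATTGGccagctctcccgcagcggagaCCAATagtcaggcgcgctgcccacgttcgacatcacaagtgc
In Mcm6 the sites TTGGCGC at position -109 and GCGCGAA at -106 from the start overlap, as do those at -46 and -43. In Ccnb2 a CHR element stands at -167 and 3 NF-Y boxes at -87, -54 and -21, and a further CHR element at 5 lies past the printed bases. In Kif11 the CHR element lies at -19 and the NF-Y box at -45. A match is a description of letters and no measurement of a factor at the site.

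**Figure D1:**
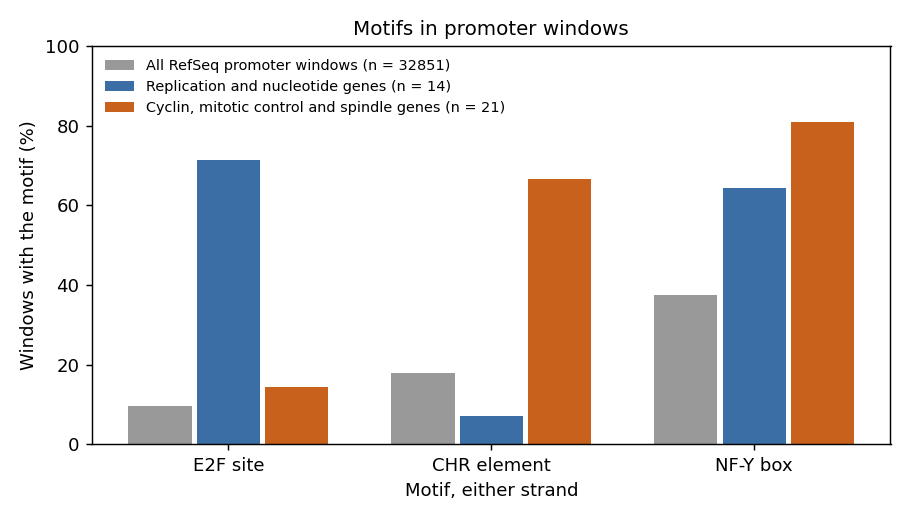
Share of promoter windows (%) that hold an E2F site, a CHR element or an NF-Y box on either strand, for all 32851 RefSeq windows (grey), 14 windows of replication and nucleotide genes (blue) and 21 windows of cyclin, mitotic control and spindle genes (orange). E2F sites are frequent in the blue set (71.4%) and CHR elements in the orange set (66.7%).

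The levels of the 39 genes spanned a wide range in WT hearts at 6 months. Per kilobase of exon, Pcna stood highest, with a mean normalised count of 234, followed by Mcm3 (36.8), Mcm4 (36) and Mcm7 (34.3). Mki67, the Ki-67 antigen found in all cycling cells, stood at 12.0 per kilobase, Top2a at 6.15, Cdk1 at 3.91, and Aurkb (2.12) and Bub1 (1.26) stood lowest. The helicase subunits and the clamp were thus above the cyclin, mitotic control and spindle genes, except for Cenpf (21.2), which stood above Mcm2, Mcm5 and Mcm6. Pcna stood far above its neighbour Mcm3, while Mcm3 and Mcm4, as neighbours, differed by less than the spread between libraries. Of the transcript sequence of Pcna, 19.1% is shared with other genes, most of all with Pcna-ps2.

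Sorbs2 itself was lower in the KO libraries than in WT, and with vector it was higher than in KO. Its mean was 18.9% of WT at 6 weeks (exact permutation p = 0.1, two-sided, the smallest that 3 against 3 libraries allow) and 20.2% at 6 months (exact permutation p = 0.00794). KO 1 and KO 5 at 6 months held 1648 and 1755, and KO 2, KO 3 and KO 4 held 494 to 612. Libraries with vector ranged from 4696 to 17923 (exact permutation p = 0.0159 against KO and 0.127 against WT). Their mean was 219% of that of WT, where libraries ranged from 4562 to 5398, and KO+AAV 3 (15690) and KO+AAV 4 (17923) lay far above that range. Totals of normalised counts were 11359135 to 13670340 at 6 months and 6705133 to 8240294 at 6 weeks, and the depth behind single values is unknown. Some libraries stood apart for the cell cycle genes. KO 3 was the highest of the 14 libraries at 6 months for 31 of the 39 genes, WT 4 the lowest for 14 and WT 1 for 11, and at 6 weeks the library KO4 was the highest of 6 for 25 genes and WT6 the lowest for 23. Xist, expressed from the inactive X chromosome of females, was on in WT 4, WT 5, KO+AAV 1 and KO+AAV 3 at 6 months and in no KO library of that age. Calls lost among libraries without Xist, or with Xist as a covariate, are given beside the results.

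**Figure D2:**
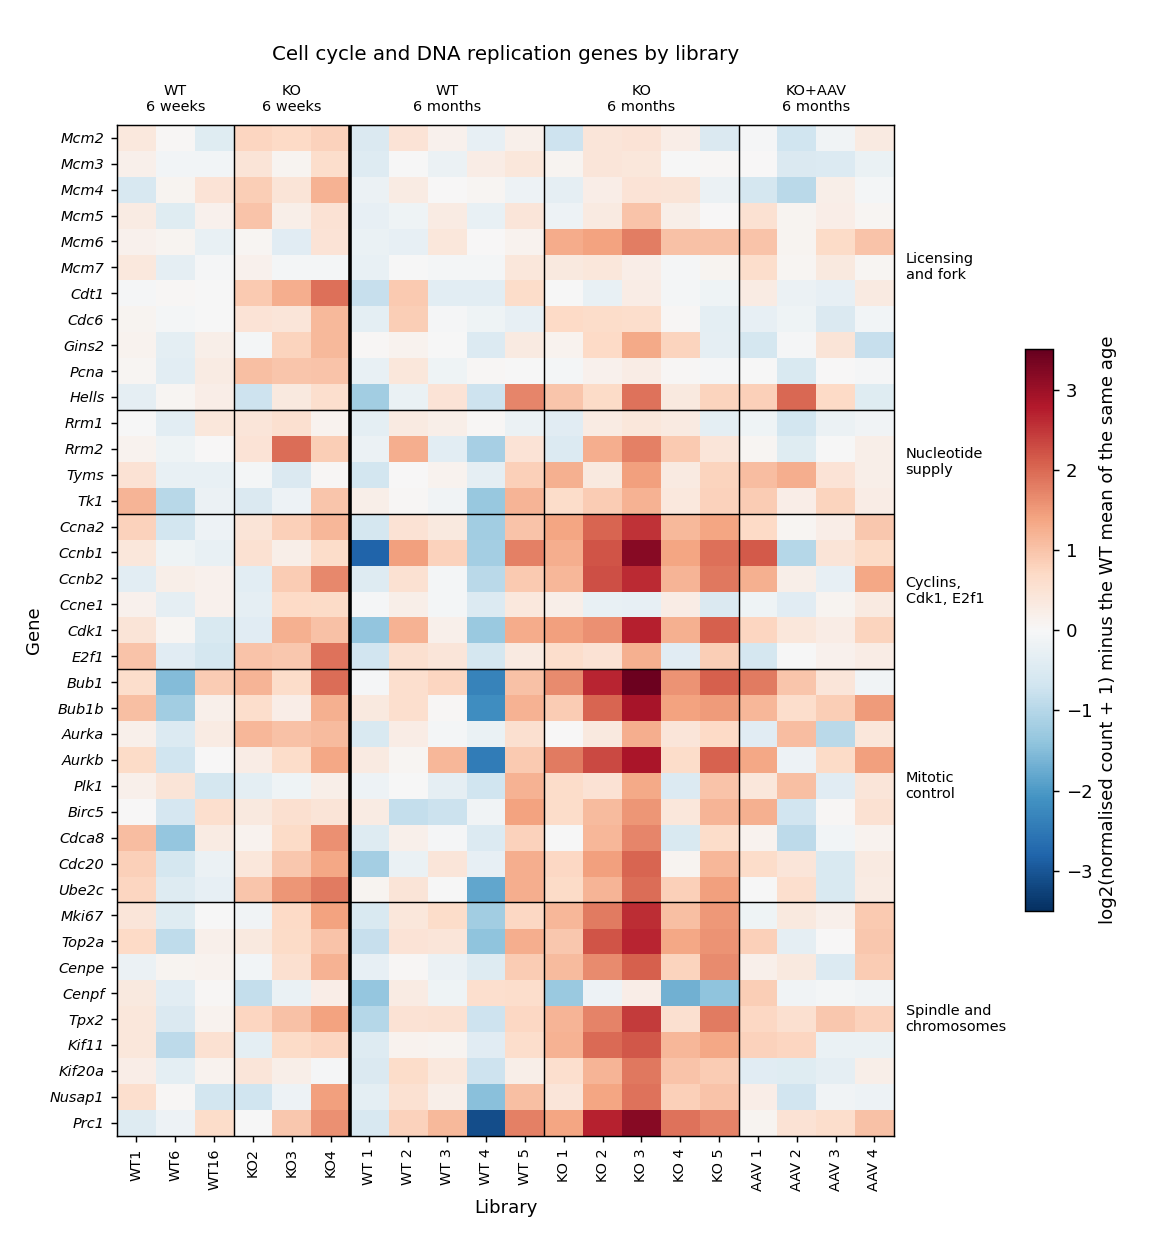
Each cell is the log2(normalised count + 1) of a gene (rows, grouped by role) in a library (columns, with groups above), minus the WT mean of the same age; red is higher and blue lower. KO 3 is the highest of the 14 libraries at 6 months for 31 of 39 genes, and the mitotic rows are redder than the helicase rows in KO at 6 months.

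In adult hearts, 14 of the 39 genes were higher in KO than in WT and none was lower. All 39 were tested, with limma on log2(normalised count + 1) and Benjamini-Hochberg adjustment over all 13419 genes tested at a threshold of 0.05, and 21 had an unadjusted p under 0.05 with a higher and 1 with a lower value. Over all genes, 8.13% were higher and 8.18% lower, and 3846 of 13419 had an unadjusted p under 0.05 in either direction. The median log2 change of the 39 was 0.93 (range -0.87 to 2.29, 35 above 0), beside 0.0023 for all genes. For 6 genes every KO library lay above every WT library, namely Mcm6, Ccna2, Ccnb2, Bub1, Mki67 and Kif11, while 6.56% of all genes were separated in that way and 7.29% in the other, which no gene of the 39 was. Bub1 and Aurkb reached the minimum level for testing only through KO libraries. The count of 14 became 8 without WT 1 and 9 without KO 3, and it was 13 among libraries without Xist and 11 with Xist as a covariate. With libraries scaled to equal totals the median of all genes moved to 0.159, 1775 of all genes were higher and 653 lower in place of 1091 and 1098, and 17 of the 39 were higher.

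**Figure D3:**
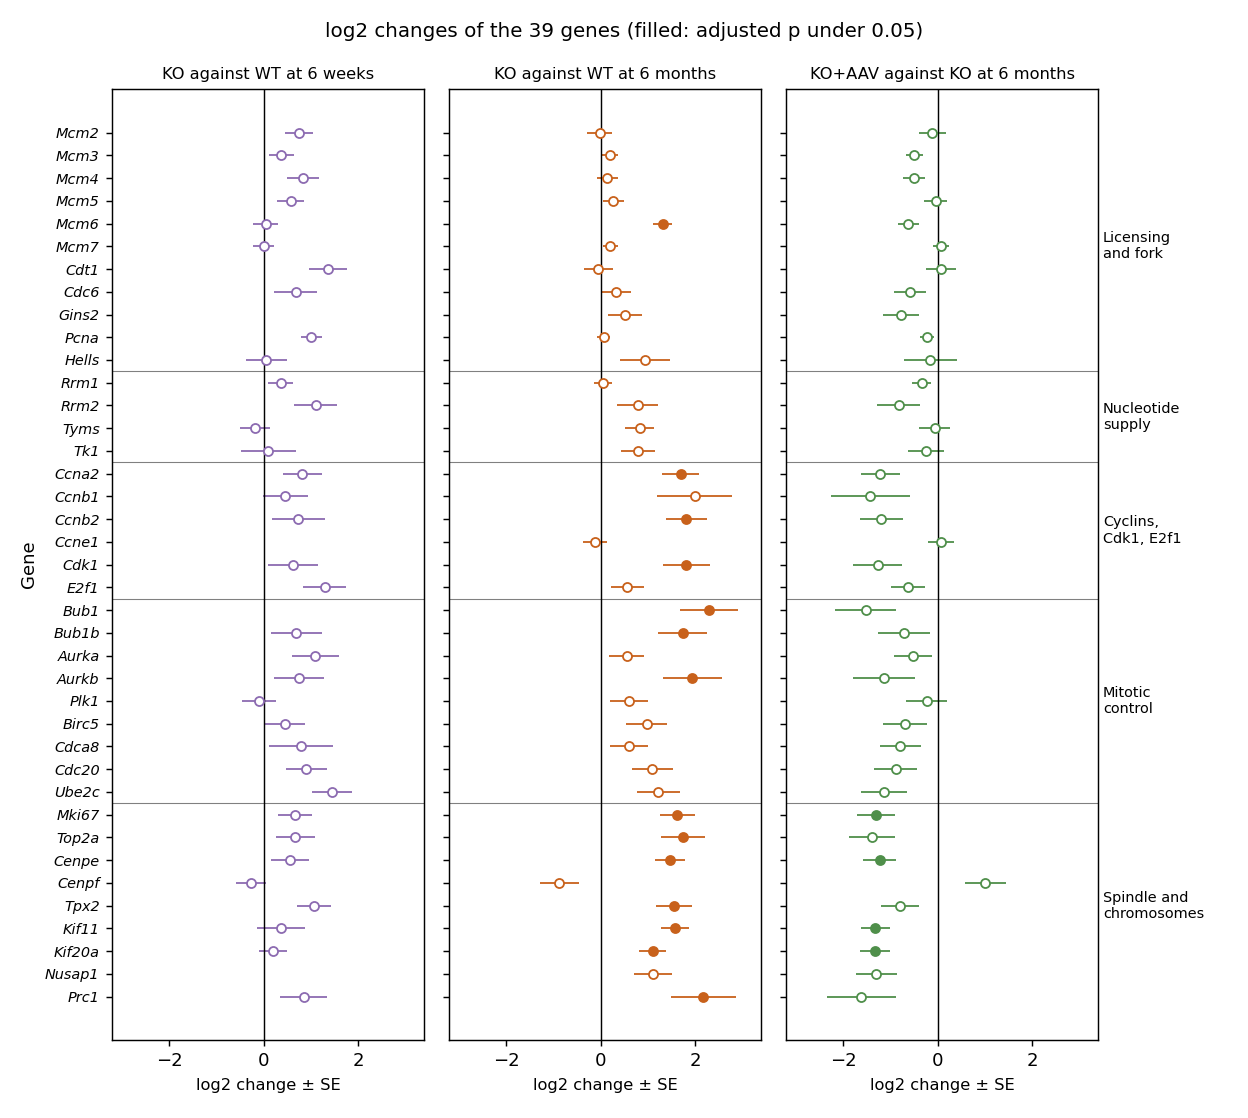
log2 change with its standard error for the 39 genes in 3 comparisons: KO against WT at 6 weeks (35 genes tested), KO against WT at 6 months and KO+AAV against KO at 6 months; filled points have an adjusted p under 0.05. Filled points number 0, 14 and 4, and most of the 14 lie among the cyclin, mitotic control and spindle genes.

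Among 11 genes of origin licensing, helicase and fork, Mcm6 alone rose at 6 months. Mcm6 encodes a subunit of the hexameric helicase. Its normalised counts in WT 1 to WT 5 were 74.1, 72.3, 115, 88.2 and 94.9, and in KO 1 to KO 5 they were 217, 232, 308, 181 and 179. Every KO library lay above every WT library, and the mean went from 88.9 ± 17.4 to 223 ± 52.4 (SD, n = 5 each), or 2.51-fold (log2 1.31 ± 0.21 SE, limma adjusted p = 0.000471). The call held in all 26 alternatives (adjusted p up to 0.00717). The other subunits of the same hexamer gave log2 values between -0.02 (Mcm2) and 0.27 (Mcm5), with adjusted p from 0.428 (Mcm7) to 0.972 (Mcm2). Mcm7, for example, stood at 174 ± 21.2 in KO and 152 ± 26.3 in WT. Of its transcript sequence, 18.1% is shared with other genes, most of all with the predicted gene Gm5487. Pcna, the clamp, did not pass either, with 583 ± 57.6 in KO and 562 ± 101 in WT (log2 0.07 ± 0.14). The loading factors Cdc6 (0.33) and Cdt1 (-0.05), the GINS subunit gene Gins2 (0.52) and the chromatin remodeller gene Hells (0.93) also missed the threshold. Hells was variable, from 4.88 to 43.3 in WT and from 16.3 to 50 in KO. Gse1 on the opposite strand overlaps 67.3% of the exons of Gins2, and whether the counting used strand is not stated. The median of the 11 genes was 0.205.

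None of the 4 genes of nucleotide supply passed at 6 months (limma; 2 at an unadjusted p under 0.05). Rrm1 and Rrm2 encode the large and the small subunit of ribonucleotide reductase. The log2 change was 0.05 for Rrm1, from 232 ± 43.3 in WT to 244 ± 61.2 in KO, and 0.78 for Rrm2, from 42.4 ± 28.3 to 71.1 ± 37.8 (adjusted p = 0.257). Tyms, thymidylate synthase, gave 0.83 (adjusted p = 0.0857) and Tk1, the cytosolic thymidine kinase, 0.79 (adjusted p = 0.165). Rrm2 ranged from 15.4 (WT 4) to 87.6 (WT 2) within WT and from 25.6 (KO 1) to 124 (KO 3) within KO, so that the groups overlapped.

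Of 6 genes of cyclins, Cdk1 and E2f1, 3 rose, and all 3 act at the entry into mitosis. Ccna2, the cyclin of S phase and early mitosis, held 14.6, 33.3, 29.2, 9.23 and 46.4 in WT 1 to WT 5, and 61.0, 97.5, 138, 51.2 and 61.6 in KO 1 to KO 5. The groups did not overlap, and the mean was 3.09-fold higher in KO (log2 1.69 ± 0.39, limma adjusted p = 0.00723). Ccnb2, a B-type cyclin that partners Cdk1, held 7.78, 16.2, 10.4, 5.14 and 21.6 in WT and 25.5, 55.6, 72.1, 26.2 and 41.9 in KO (log2 1.81 ± 0.43, adjusted p = 0.00872), again without overlap. Cdk1, the mitotic kinase, rose from 19.3 ± 15.2 to 56.5 ± 26.2 (log2 1.82, adjusted p = 0.0193), and its groups overlapped through WT 5 (36.1), above the lowest KO value of 34.8 (KO 4). Ccnb1, the other B-type cyclin, had a larger log2 value of 1.99 but a wide spread, listed at 0 in WT 1 and at 62.5 in KO 3, and did not pass (adjusted p = 0.104). It shares 23.4% of its transcript sequence with other genes, most of all with Ccnb1-ps. Ccne1, the cyclin of the G1 to S transition, did not pass (log2 -0.11, adjusted p = 0.839), nor did E2f1, a transcription factor of S phase genes (0.57, adjusted p = 0.303).

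Of 9 genes of mitotic control, 3 passed at 6 months (Bub1, Bub1b and Aurkb). Bub1 and Aurkb were admitted to the test only through their KO values, so their calls are given as values and not as support for the group. Bub1, a checkpoint kinase gene, was near the limit of measurement in WT, with 3.90, 6.65, 7.54, 0 and 9.29, and held 15.1, 31.2, 53.9, 14.2 and 20.5 in KO. No KO library reached down to the WT values (log2 2.29 ± 0.61, limma adjusted p = 0.0171). Bub1b, which encodes the checkpoint protein BubR1, went from 16.6 ± 10.5 to 51.0 ± 30.03 (log2 1.74, adjusted p = 0.0312), and Aurkb, the kinase of the chromosomal passenger complex, from 6.24 ± 4.37 to 22.6 ± 11.3 (log2 1.94, adjusted p = 0.0439). The 2 other genes of that complex listed here did not pass: Birc5 (survivin) had a log2 value of 0.97 (adjusted p = 0.146) and Cdca8 (borealin) of 0.59 (adjusted p = 0.375). Ube2c, the E2 enzyme of the anaphase-promoting complex, gave 1.22 (adjusted p = 0.0828), and Cdc20, its activator, 1.09 (adjusted p = 0.101). The kinases Aurka (0.55) and Plk1 (0.60) had adjusted p values of 0.372 and 0.369. Tnnc2 on the opposite strand overlaps 22.8% of the exons of Ube2c.

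The spindle and chromosome genes held the most calls, 7 of 9. Mki67 held 73.2, 142, 168, 45.1 and 178 in WT 1 to WT 5 and 242, 377, 642, 223 and 309 in KO 1 to KO 5. All KO libraries lay above all WT libraries, with means of 359 ± 169 and 121 ± 58.9 (2.96-fold; log2 1.62 ± 0.37, limma adjusted p = 0.00685). Kif11, the motor that pushes spindle poles apart, held 19.5, 29.4, 29.2, 20.5 and 42.3 in WT and 64.6, 111, 127, 62.0 and 70.6 in KO (log2 1.58 ± 0.30, adjusted p = 0.0018), also without overlap. Top2a, the topoisomerase that untangles sister chromatids, rose by 1.75 (adjusted p = 0.0164), from 55.4 ± 37.3 to 168 ± 81.2. Tpx2, a spindle assembly factor that activates Aurora A, rose by 1.55 (adjusted p = 0.00958), and Cenpe, a kinetochore motor, by 1.46 (adjusted p = 0.00534). Prc1, which bundles microtubules of the central spindle, rose by 2.17 (adjusted p = 0.0414), with WT values from 1.04 (WT 4) to 58.2 (WT 5) and KO values from 44.6 to 159. Kif20a, the kinesin MKLP2, rose by 1.10 (adjusted p = 0.0182), and exons of Cdc23 on the opposite strand overlap 29.3% of it. Nusap1, a spindle protein, missed the threshold at 1.11 (adjusted p = 0.0786). Cenpf, a large kinetochore and nuclear matrix protein, had the lowest value of the 39 genes, -0.87 (adjusted p = 0.173), with 113 to 452 in WT and 90.3 to 343 in KO.

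In the adult comparison, Mcm6, Ccna2, Ccnb2, Bub1, Mki67, Cenpe, Tpx2 and Kif11 passed under every alternative that could be fitted. Calls were lost for Top2a in 1 of 26 alternatives (without WT 1, adjusted p = 0.0506), Cdk1 in 5 of 25 (without WT 1, WT 4, KO 3, KO 5, or both KO libraries of higher Sorbs2; up to 0.0668) and Kif20a in 5 of 26 (among them without WT 1 and without KO 3, and both treatments of Xist; up to 0.106). Bub1b lost its call in 8 of 25 (among them without WT 1, WT 3, KO 2, KO 3 or KO 5, and with Xist as a covariate; up to 0.0887), Prc1 in 12 of 26 (among them without WT 1, WT 4, KO 2, KO 3, KO 4, KO 5 or KO+AAV 3, and with Xist as a covariate; up to 0.12) and Aurkb in 16 of 25 (among them without WT 1, WT 2, WT 4, KO 1, KO 2, KO 3, KO 5, KO+AAV 1 or KO+AAV 3, and both treatments of Xist; up to 0.131).

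**Figure D4:**
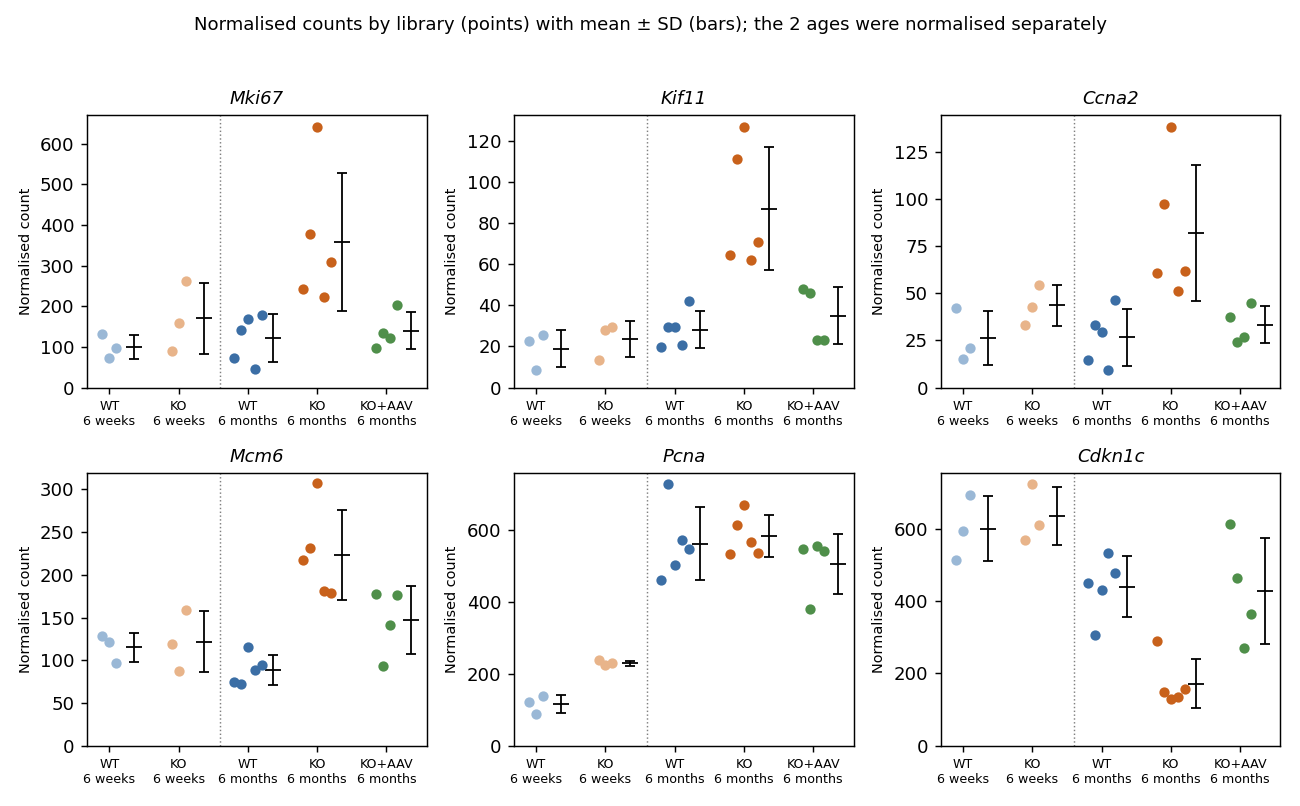
Normalised counts by library (points) with mean ± SD (bars) in the 5 groups for Mki67, Kif11, Ccna2, Mcm6, Pcna and Cdkn1c; the ages were normalised separately, so levels compare only within an age. The 5 KO points at 6 months lie above the 5 WT points for Mki67, Kif11, Ccna2 and Mcm6 and below them for Cdkn1c, while for Pcna they overlap.

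At 6 weeks, no cell cycle gene differed between KO and WT by the same test, although most were higher in KO. Of 35 genes tested, limma called 0 higher and 0 lower, beside 0.378% and 0.211% of all genes. At an unadjusted p under 0.05, 9 were higher and 0 lower, beside 2045 of all 13242 genes in either direction. The median log2 change was 0.67 (range -0.27 to 1.44, 32 above 0), beside 0.00505 for all 13242 genes tested. Gins2, Ccne1, Bub1 and Nusap1 were too low to test, and Ccnb1, Ccnb2, Cdk1, Bub1b, Aurka, Aurkb, Cdca8 and Kif11 were tested only because of their KO values, so the median is not that of all 39. The 3 KO libraries lay above the 3 WT libraries for 8 genes (Mcm2, Cdt1, Cdc6, Pcna, Rrm2, Aurka, Ube2c and Tpx2). Of all genes, 10.9% were separated in that way, beside 10.3% and no cell cycle gene in the other. Aurka reached the minimum of 10 in 3 KO and 0 WT libraries, so passing the filter fixed its separation in advance. Of these 8 genes, 5 act in replication or nucleotide supply. Pcna had the smallest adjusted p of the 35 genes, 0.0718 (log2 1.00 ± 0.22), with 120, 88.4 and 139 in WT and 237, 223 and 229 in KO. It was called without the library WT16 (adjusted p = 0.0499). Cdt1, the licensing factor, held 13.1, 14 and 13.3 in WT and 26, 34.1 and 53.7 in KO (log2 1.37, adjusted p = 0.146). Ube2c had the largest log2 value, 1.44 (adjusted p = 0.146), with 28.7, 11.9 and 13.4 in WT and 33.4, 50.3 and 61.5 in KO. In Ube2c the lowest KO library thus stood only just above the highest WT library. E2f1 gave 1.29 (adjusted p = 0.222), with 43.5, 16.0 and 13.5 in WT and 43.8, 42.0 and 82.5 in KO, and its groups overlapped.

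Genes that passed in adult hearts did not pass in young ones. Mki67 held 132, 72.9 and 97.3 in WT and 89.6, 159 and 262 in KO at 6 weeks, so that the groups overlapped (log2 0.66, adjusted p = 0.412). Kif11 gave 0.36 (adjusted p = 0.769) and Mcm6 0.05 (adjusted p = 0.952), the latter with 128, 121 and 96.4 in WT and 119, 87.3 and 159 in KO. Whether a knockout effect differed between the ages was tested as the difference of the log2 changes. Of 35 genes, 1 was more strongly raised at 6 months, Mcm6 (difference 1.27 ± 0.33, adjusted p = 0.0318 by a t test on the difference). Another 1 was raised less strongly, Pcna (difference -0.94 ± 0.26, adjusted p = 0.0487). Of all genes, 1.99% and 2.09% passed in these directions. For the mitotic genes the difference did not pass: it was 0.96 for Mki67 (adjusted p = 0.339), 1.22 for Kif11 (0.29), 0.88 for Ccna2 (0.444) and 1.07 for Top2a (0.375). The call of Mcm6 was lost in 6 of 23 alternatives (without WT 1 or KO 3 of 6 months, or WT1, WT6, KO2 or KO3 of 6 weeks; adjusted p up to 0.129). That of Pcna was lost in 15 of 23, with equal totals and without any 1 of WT 2, WT 4, KO 1, KO 2, KO 4, KO 5, KO+AAV 1, KO+AAV 3 or KO+AAV 4 of 6 months or WT1, WT6, KO2, KO3 or KO4 of 6 weeks (adjusted p up to 0.207).

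Hearts given Sorbs2 back held less Mki67, Cenpe, Kif11 and Kif20a than KO hearts. These 4 of the 39 genes, all of them spindle and chromosome genes, were lower in KO+AAV and 0 were higher by limma, beside 5.69% lower and 5.55% higher of all genes. At an unadjusted p under 0.05, 14 were lower and 1 higher, beside 3975 of all 13419 genes in either direction. The median log2 change was -0.71, beside -8.12e-06 for all genes. Both the counts and the median include Bub1 and Aurkb, which were admitted to the test only through their KO values. They are thus a description of the genes tested. This comparison shares its KO libraries with the comparison against WT, so the values of both are only set side by side. Mki67 held 97.1, 135, 122 and 204 in KO+AAV 1 to KO+AAV 4, all under the lowest KO value of 223 (log2 -1.30 ± 0.39, adjusted p = 0.0443, beside 1.62 for KO against WT). Kif11 held 47.9, 45.9, 23.0 and 23.0, all under the lowest KO value of 62.0 (log2 -1.31 ± 0.31, adjusted p = 0.015, beside 1.58). Kif20a held 20.9, 20.5, 22.3 and 32.4, under 41.9 in the lowest KO library (log2 -1.32, adjusted p = 0.0141, beside 1.10). Cenpe fell by 1.23 (adjusted p = 0.0312, beside 1.46), with 43.3 in KO+AAV 4 overlapping 40.3 in KO 4.

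Every KO+AAV library lay under every KO library for 10 of the 39 genes (Mcm6, Ccna2, Cdk1, Ube2c, Mki67, Top2a, Kif11, Kif20a, Nusap1 and Prc1), while 7.44% of all genes were separated in that way and 6.68% in the other, which no gene of the 39 was. Ccna2 held 37.6, 24.2, 26.9 and 45.1 with vector, but did not pass (log2 -1.21, adjusted p = 0.0691). Nusap1 (-1.30, adjusted p = 0.0651), Top2a (-1.38, adjusted p = 0.078) and Prc1 (-1.61, adjusted p = 0.155) missed the threshold as well. Mcm6 stood between the other groups, at 177, 93.0, 141 and 177, and passed neither against KO (log2 -0.62, adjusted p = 0.0795) nor against WT (0.70, adjusted p = 0.127). Cenpf again went the other way, with 536, 271, 282 and 269 (log2 1.01 against KO, adjusted p = 0.135). Against WT, limma called 0 of the 39 genes higher and 0 lower in KO+AAV, beside 0.611% and 0.715% of all genes. At an unadjusted p under 0.05, 2 were higher and 0 lower, beside 2454 of all 13419 genes in either direction. The median was 0.24, and no gene was separated, compared with 2.73% of all genes separated upwards and 2.67% downwards. A p above the threshold does not show that KO+AAV and WT were alike: the log2 value against WT was 0.32 ± 0.39 for Mki67 and 0.56 ± 0.73 for Prc1.

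The count of 4 lower genes depended on single libraries. It was 7 without WT 4 or without WT 5, 2 without KO 2, KO 3, KO 5, KO+AAV 2 or KO+AAV 3, and 1 without KO+AAV 1. Among libraries without Xist it was 0 by limma, and with Xist as a covariate it was 1. Without Xist, 13 were lower at an unadjusted p under 0.05, beside 2566 of all 13622 genes in either direction. Kif11 lost its call only among libraries without Xist (adjusted p = 0.0851), and Kif20a also without KO+AAV 1 and with the covariate (up to 0.134). Mki67 lost its call in 10 of 26 alternatives (among them without WT 1, KO 2, KO 3, KO 5, KO+AAV 1, KO+AAV 2 or KO+AAV 3, and both treatments of Xist; up to 0.219) and Cenpe in 11 of 26 (among them without KO 2, KO 3, KO 5, KO+AAV 1, KO+AAV 2 or KO+AAV 3, and both treatments of Xist; up to 0.225).

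Within groups, the mitotic genes moved together from library to library. After removal of group means, the median Pearson correlation over the 14 libraries at 6 months was 0.626 among the 24 cyclin, mitotic control and spindle genes (276 pairs). It was 0.394 among the 15 replication and nucleotide genes (105 pairs) and 0.412 between the sets (360 pairs). The points share their libraries and their normalisation, so this is a description. KO 3 was the highest library for 22 of the 24 mitotic genes and for 9 of the 15 replication genes. WT 5 was the highest WT library for 21 of the 24, and WT 4 the lowest of all libraries for 12. Summed over the 24 genes, normalised counts were 478 (WT 1), 1048 (WT 2), 922 (WT 3), 700 (WT 4) and 1464 (WT 5). They were 1139, 1955, 2962, 1074 and 1490 in KO 1 to KO 5 and 1246, 880, 824 and 1104 in KO+AAV 1 to KO+AAV 4. By this sum WT 5 stood above KO 1 and KO 4, so the groups overlapped. Cenpf, which had a lower mean in KO, supplied 452 of the sum in WT 5, 118 in KO 1 and 90.3 in KO 4. It also supplied 440 in WT 4 and 536 in KO+AAV 1, and a sum without Cenpf was not made.

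The regulators of the cycle outside the 39 genes were read from lists by role. In KO against WT at 6 months, 8.13% of all genes were higher and 8.18% lower, for comparison with each list. Among 7 CDK inhibitor genes tested at 6 months, 1 fell, 0 rose and 6 did not pass by limma. Cdkn1c encodes p57, an inhibitor of cyclin-dependent kinases. It held 449, 307, 432, 534 and 477 in WT 1 to WT 5 and 291, 148, 129, 135 and 158 in KO 1 to KO 5, without overlap (log2 -1.40 ± 0.24, adjusted p = 0.00103). With vector it held 612, 463, 271 and 366, and was higher than in KO (log2 1.32, adjusted p = 0.0054) although KO+AAV 3 lay under KO 1. At 6 weeks its log2 value was 0.09 (adjusted p = 0.861), and the difference between ages passed (-1.48 ± 0.31, adjusted p = 0.00545). These calls held in all alternatives tried. The other inhibitors did not pass at 6 months: Cdkn1a (p21) gave -0.38, Cdkn1b (p27) -0.26, Cdkn2a 1.43, Cdkn2b 0.37, Cdkn2c -0.11 and Cdkn2d -0.04. Cdkn3 was too low to test.

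Among 10 genes of G1 cyclins, their kinases and pocket proteins, 2 rose, 0 fell and 8 did not pass. Ccnd1 (cyclin D1) rose by 0.72 (adjusted p = 0.0286) and Ccnd2 (cyclin D2) by 0.44 (adjusted p = 0.0293); the call of Ccnd1 was lost in 7 of 26 alternatives (among them without WT 1, WT 4, KO 3 or KO 5, and both treatments of Xist, up to 0.0959) and that of Ccnd2 in 9 of 26 (among them without WT 3, WT 4, KO 2, KO 4 or KO 5, and both treatments of Xist, up to 0.124). Of 15 E2F, DREAM and B-Myb factors, 2 rose and 0 fell. Mybl2, the B-Myb factor that acts on promoters of mitotic genes, rose from 6.92 ± 3.53 to 21.6 ± 5.93 (log2 1.58, adjusted p = 0.00546), and E2f3 rose by 0.68 (adjusted p = 0.036; lost in 10 of 26 alternatives, among them without WT 1, WT 4, WT 5, KO 2, KO 3 or KO 4, and both treatments of Xist, up to 0.272). In a list of 36 other origin and fork genes, 3 rose and 2 fell (median -0.05), shares near the 8.13% and 8.18% of all genes. Mcm10, an origin firing factor, gave 1.65 (adjusted p = 0.0169) and reached the minimum level for testing only through KO libraries. Chaf1a, a histone chaperone of the fork, rose by 0.79 (0.0134) and Orc2, of the origin recognition complex, by 0.47 (0.00981). Gmnn, which encodes geminin, the inhibitor of Cdt1, held 793, 521, 637, 614 and 626 in WT and 263, 352, 366, 233 and 198 in KO, and fell by 1.20 (adjusted p = 0.000454). With vector Gmnn held 783, 454, 557 and 664, above every KO library (log2 1.13, adjusted p = 0.00308). Dut, which keeps uracil out of DNA, fell by 0.65 (adjusted p = 0.00924).

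Of 51 other kinetochore, checkpoint, spindle and cytokinesis genes tested at 6 months, 12 rose and 1 fell. Of all genes, 8.13% rose and 8.18% fell. Of the 51, 10 reached the minimum level only through KO libraries, and 2 of these, Nek2 and Sgol1, are among the 12, so the median of 0.88 is a description of the genes tested. Ndc80, which binds kinetochores to microtubules, rose from 6.93 ± 3.65 to 26.3 ± 10.3 (log2 1.82, adjusted p = 0.00587), Nek2 by 1.78 (0.0175), Ect2 by 1.73 (0.0129), Hmmr by 1.65 (0.0195) and Kif20b by 1.29 (0.0156). Spc24, a partner of Ndc80 in the same complex, fell from 68.8 ± 22.0 to 33.4 ± 8.18 (log2 -0.997, adjusted p = 0.0139). Against KO, 2 of the 51 were higher with vector and 3 lower, near the 5.55% and 5.69% of all genes, and Spc24 was higher by 1.02 (adjusted p = 0.0255). Of 16 target genes of p53, 4 rose at 6 months and 1 fell: Phlda3 (1.65, adjusted p = 0.000269), Gdf15 (1.73, 0.02), Zmat3 (0.92, 0.00104) and Eda2r (0.80, 0.0316) rose and Sesn1 fell by 0.57 (0.0145). At 6 weeks limma called 0 of the 119 genes tested in these 6 lists. At an unadjusted p under 0.05, 13 were higher and 5 lower, beside 2045 of all 13242 genes in either direction. Of the 42 kinetochore, checkpoint, spindle and cytokinesis genes among them, 16 reached the minimum level only through KO libraries. Some genes of the other lists did so too, so these counts and the medians only describe the genes tested. The medians ranged from -0.03 for the 34 origin and fork genes tested to 0.70 for the 5 CDK inhibitors tested. Against WT, Hmmr lost its call in 6 of 25 alternatives (among them without WT 1, WT 4, KO 3 or KO 5, and with Xist as a covariate, up to 0.0561), Nek2 in 4 of 25 (among them without WT 1 or KO 3, and both treatments of Xist, up to 0.0635) and Gdf15 in 5 of 26 (among them without WT 3, KO 1 or KO 5, and with Xist as a covariate, up to 0.138). Eda2r lost it in 10 of 26 (among them without WT 1, WT 4, KO 2, KO 4 or KO 5, and both treatments of Xist, up to 0.112), and Spc24 against KO in 7 of 26 (among them without KO 4, KO 5, KO+AAV 1 or KO+AAV 2, and both treatments of Xist, up to 0.0936). Mcm10, Dut, Orc2, Sesn1 and Spc24 against WT, and Gmnn against KO, lost theirs in 1 or 2 alternatives that left out no single library (up to 0.115); for Dut, Orc2 and Gmnn, libraries without Xist were among these.

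Markers of the cell types of the heart moved beside the cell cycle genes. Of all genes, 8.13% were higher and 8.18% lower in KO than in WT at 6 months. With vector, 5.55% were higher and 5.69% lower than in KO. Of 10 fibroblast markers tested, 6 were higher in KO at 6 months and 4 lower with vector than in KO. Their summed normalised count was 30600 to 45600 in WT, 42900 to 59400 in KO and 32500 to 43800 in KO+AAV, and at 6 weeks 31800 to 38500 in WT and 41400 to 47600 in KO. Of 10 cardiomyocyte markers, 4 were lower in KO at 6 months and 3 higher with vector, with sums of 1410000 to 1750000 in WT, 844000 to 1090000 in KO and 1290000 to 1920000 in KO+AAV. By limma, 0 of 10 endothelial markers passed between KO and WT at 6 months (3 lower at an unadjusted p under 0.05), with sums from 13900 to 16200 in KO hearts and from 15800 to 20300 in WT hearts, and 1, Tie1, was higher with vector than in KO. Of 10 mural cell markers, 1 was higher (Cspg4) and 3 lower (Acta2, Abcc9 and Vtn) in KO at 6 months, and with vector 3 were higher and 1 lower than in KO. Their sums were 12300 to 19400 in WT, 8330 to 11400 in KO and 10900 to 14100 in KO+AAV. Of 11 macrophage markers tested, 0 passed between KO and WT at 6 months, also unadjusted (2960 to 4890 in KO and 3040 to 4540 in WT). With vector, limma called 0 against KO, and 2 were lower at an unadjusted p under 0.05. Markers of thymocytes and of marrow progenitors, from tissues with many dividing blood cells, were low. In the thymocyte list, only 1 gene reached 10 in any WT library at 6 months, and only 1 in any KO library. Thymocyte markers at 6 months summed to between 14.2 and 29.8 in KO and between 31.9 and 55.3 in WT, with Dntt, Ptcra and Aire at 0 in every WT library and Rag1 at 0 in every KO library, and marrow markers to 0.959 to 29.6 in KO and at most 19.6 in WT, with Mpo and Elane at 0 in every KO library. At 6 weeks the marrow sum reached 196 in KO and 22.6 in WT. T and NK cell markers summed to 23.9 to 59.9 in KO and 35.9 to 63.6 in WT, and B cell markers to 32.7 to 60.6 and 15.4 to 28.7, at 6 months. Of the single calls among blood cell markers, Cd1d1 of the thymocyte list was lower in KO (log2 -1.25, adjusted p = 0.00256) and higher with vector than in KO (1.03, 0.0198), and Cxcr2 of the 6 neutrophil markers tested was lower with vector (-2.08, 0.0473). Of 7 erythroid markers tested, limma called 0 between KO and WT at 6 months (1 at an unadjusted p under 0.05). Erythroid sums at that age were larger, 12200 to 33500 in WT and 8080 to 25600 in KO. Neutrophil sums were 42.6 to 785 in WT and 81.4 to 376 in KO. The part of these cell types in the values of the 39 genes was not tested.

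Promoter windows were available for 10 of the 14 genes that were higher at 6 months, and their motifs are given as a description. Of 11 windows of these 10 genes, 72.7% held a CHR element, 100% an NF-Y box and 27.3% an E2F site. Of 24 windows of the other genes, the shares were 29.2%, 62.5% and 41.7%. All of the 10 called genes but Mcm6 are cyclin, mitotic control or spindle genes, and that set held a CHR element in 66.7% of its windows. Windows of replication and nucleotide genes held one in 7.14% and lie mostly among the other genes. The contrast thus follows the roles, and whether the calls add to it was not tested. Mcm6, the helicase gene that rose, has E2F sites and NF-Y boxes but no CHR element in its window. The same holds for Mcm3, Mcm5 and Mcm7, which did not pass. Cenpf, with a CHR element at 3 and NF-Y boxes at -132 and -71, did not rise, while Bub1 was called with NF-Y boxes alone.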

How the data were processed

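Poly(A) RNA was sequenced from stranded libraries with 150 bp read pairs, per the labels' protocols. The authors deposited 1 table of normalised counts per age, a signal on a scale common to the libraries of that table (18657 genes at 6 months, 17808 at 6 weeks); the series text names DESeq2 for the authors' own testing. The build is mm10 per the submitters' processing notes; for aligner, counter, annotation and strand setting the entry is "not given in the sources used here". Deposited values did not resolve into whole reads (75.4% to 91.6% of low values were whole multiples of the smallest step at 6 months and 38.4% to 84.0% at 6 weeks, within 0.1), so count tests were not run and depth is unknown. Columns of the 6-week table matched a group, not a single sample.

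Values were tested as log2(value + 1) with limma 3.58.1 in R 4.3.3 (trend; the 3 groups at 6 months in 1 model). A gene was tested when at least 10 in 4 libraries at 6 months or 3 at 6 weeks. Fold changes on this scale understate those of low genes. Ages were compared by the difference of log2 changes over the combined standard error. Loci and overlaps come from GENCODE vM21, levels per kilobase from merged exons. Steps were tested on simulated data. Scripts ran in Python 3.11.15. The members and lists were chosen with earlier results of these data known. Named were Sorbs2, all 39 genes, every CDK inhibitor, and in each other pathway list up to 6 genes of smallest p per comparison. Of the markers, those past the test or at 0 could be named.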

Additional observations from a re-analysis of the deposited data

Results flagged for a closer look

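A single library stood far from the rest of its group, by Dixon's criterion, in 8 of 126 groups examined, where chance gives about 1 in 20. Among WT libraries at 6 months, WT 2 held 23.7 of Cdc6 (next 12.3), and WT 5 held 37.1 of Plk1 (next 15.2) and 43.4 of Cenpe (next 23.7). Among KO libraries, KO 3 held 50 of Hells (next 25.6) and KO 1 held 291 of Cdkn1c (next 158). Among KO+AAV libraries, KO+AAV 1 held 536 of Cenpf (next 282), KO+AAV 4 held 32.4 of Kif20a (next 22.3), and KO+AAV 2 was low for Pcna, at 381 (next 540).

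The knockout effect differed between 6 months and 6 weeks by the test of the difference of log2 changes (limma fits) for 7 of the 152 genes examined, 1.32% higher and 3.29% lower, beside 1.99% and 2.09% of all genes, so these are single genes and no result about the lists. Among the 39 genes these were Mcm6 (1.27, adjusted p = 0.0318) and Pcna (-0.938, adjusted p = 0.0487). Among the regulators they were Cdkn1c (-1.48, adjusted p = 0.00545), Wee1, an inhibitory kinase of Cdk1 (-2.24, 0.0079), Stmn1, a microtubule destabiliser (-1.3, 0.0147), Kif15, a spindle motor (2.28, 0.0318), and Sesn1, a p53 target (-0.915, 0.0343). Wee1 and Cdkn1c kept the call in all 23 alternatives. Stmn1 lost it in 3 (without WT6, KO3 or KO4 of 6 weeks; up to 0.0832). Kif15 lost it in 7 (without WT 4, KO 2, KO 3 or KO 5 of 6 months or WT1, WT6 or KO3 of 6 weeks; up to 0.0982). Sesn1 lost it in 8 (equal totals, and without WT 2, KO 1 or KO 5 of 6 months or WT1, WT6, KO3 or KO4 of 6 weeks; up to 0.154).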

How the results depend on the processing

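No result of the 39 genes that passed a test changed direction under any alternative. The 14 genes higher in KO at 6 months became 9 with a minimum of 50 (19 tested), and 8 to 20 when 1 library was left out; those lower went from 0 to between 0 and 1. At 6 weeks the range was 0 to 1 higher and 0 to 0 lower. For KO+AAV against KO, the 4 lower genes became 2 without a filter on low values, 10 in a fit of the 2 groups alone, 0 among libraries without Xist, 1 with Xist as a covariate, and 1 to 7 when 1 library was left out, with 0 to 0 higher. For KO+AAV against WT, leaving out 1 library gave 0 to 1 higher and 0 to 0 lower. For the difference between ages it gave 0 to 1 higher and 0 to 1 lower, and equal totals gave 0 lower. The cause was not tested. With the replicate number as a block, 14 genes were higher in KO against WT and 3 lower in KO+AAV against KO. Of 13 like-numbered pairs, 7 correlated above 0.1 (range -0.391 to 0.253), and pairs of unlike number were not examined. Whether libraries of like number share a litter or batch was thus not tested. No paired analysis was possible at 6 weeks because the columns carry no replicate number of the labels. Of the single values of the 39 genes, 4093 stayed on their side of the threshold under the alternatives, 93 lost the call and 30 gained it. Calls lost or gained by the other named genes are not in these counts. The depth behind single values is unknown, so the counting error of low genes such as Bub1 and Aurkb could not be given.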
